A study of Mus musculus with 20 samples.

Results

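Leukocyte adhesion in the aortic wall was followed through 8 genes of the 43422 measured, chosen by name for their textbook roles, with earlier results of these data known. They are 4 adhesion molecules of endothelial cells, Vcam1, Icam1, Sele and Selp, and 4 partners on leukocytes, Selplg, Itgam, Itgal and Itgb2. All 8 were found in each of the 20 mice. Leukocytes leave the blood in steps. The selectins of an activated endothelium, P-selectin and E-selectin, catch glycosylated ligands such as PSGL-1 and let the cells roll, and integrins with the beta2 chain then bind ICAM-1, while VCAM-1 binds integrins with an alpha4 chain. In the aorta these molecules are known for their part in the entry of monocytes and neutrophils into the wall.

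RNA was measured by sequencing of the abdominal aorta of mice of the C57BL/6 strain in the labels (C57Bl/6NCrl in the study's methods), given an age of 6 months in the labels and described as male in the study's methods. The 4 groups of 5 mice were wild-type (WT) mice infused with saline, WT mice infused with angiotensin II (Ang II) at 1000 ng/kg per minute, mice without lysyl hydroxylase 1 (Plod1-/-, the LH1 knock out of the labels) infused with saline, and Plod1-/- mice infused with the same dose of Ang II. All 20 mice carried a subcutaneous osmotic pump for 14 days. Plod1-/- mice lack the enzyme in every cell type and were bred as littermates of the WT mice, and no label says how far the aortas had progressed towards dissection or aneurysm. Values are FPKM, read fragments scaled by transcript length and by the total of the library, so that levels of different genes can be set side by side, and the numbering of mice within a group pairs no mice across groups.

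Plod1 was between 22.8 and 29.7 FPKM in the 10 WT mice and at most 0.0415 FPKM in the 10 Plod1-/- mice, as the labels state. Sums of FPKM lay between 344207 and 437790, and relative depth, read from the spacing of the lowest values, between 0.896 and 1.08. Smooth muscle markers, which define the aortic wall, were present in all 20 mice, with a summed level between 2327 and 20757 FPKM. Xist RNA was present in 2 libraries of Plod1-/- mice, although the study's methods describe male mice. They were saline-treated replicate 5 (15.1 FPKM) and Ang II-treated replicate 1 (7.93 FPKM), against at most 0.0328 FPKM in the others. Ang II-treated Plod1-/- replicate 1 also had the highest smooth muscle sum of its group, 16992 FPKM against a median of 4224 FPKM. Results are given without both libraries where that changes a call. Ang II-treated WT replicate 1 stood apart from the other 4 mice of its group, with a summed level of 10 pan-leukocyte markers of 150.7 FPKM against a group median of 48.1 FPKM.

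The genes of the 4 endothelial members lie on 3 chromosomes of GRCm38. Sele (ENSMUSG00000026582) occupies 164048234 to 164057677 and Selp (ENSMUSG00000026580) 164115264 to 164150026, both on the plus strand of chromosome 1. Vcam1 (ENSMUSG00000027962) lies on the minus strand of chromosome 3 from 116109949 to 116129688, and Icam1 (ENSMUSG00000037405) on the plus strand of chromosome 9 from 21015985 to 21028817. Among the leukocyte partners, Itgal (ENSMUSG00000030830, 127296260 to 127335138) and Itgam (ENSMUSG00000030786, 128062640 to 128118491) are both on the plus strand of chromosome 7. Selplg (ENSMUSG00000048163) is on the minus strand of chromosome 5 from 113818536 to 113832644, and Itgb2 (ENSMUSG00000000290) on the plus strand of chromosome 10 from 77530252 to 77565708. Genes annotated over Vcam1, Icam1, Selp and Itgam reached no more than 0.329 FPKM in any mouse. The libraries are not stated to keep strand, so reads of the opposite strand are counted with the member.

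RefSeq promoter sequence was at hand for 4 of the 8 members and is shown because cytokine-driven transcription of the endothelial genes is a textbook case of regulation by NF-kB and AP-1. Each run below is the 250 bases before the transcription start on the plus strand of GRCm38.p6, and capitals mark matches on either strand to GGNNNTTCC (NF-kB-like), TGACTCA (AP-1-like) or GAGGAA (ETS-like).
Icam1, chr9:21015690-21015939: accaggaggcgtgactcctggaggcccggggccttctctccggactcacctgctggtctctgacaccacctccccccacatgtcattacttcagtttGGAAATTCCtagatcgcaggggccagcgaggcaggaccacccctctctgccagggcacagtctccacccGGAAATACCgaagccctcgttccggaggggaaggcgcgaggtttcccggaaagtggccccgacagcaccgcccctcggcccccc
Sele, chr1:164047984-164048233: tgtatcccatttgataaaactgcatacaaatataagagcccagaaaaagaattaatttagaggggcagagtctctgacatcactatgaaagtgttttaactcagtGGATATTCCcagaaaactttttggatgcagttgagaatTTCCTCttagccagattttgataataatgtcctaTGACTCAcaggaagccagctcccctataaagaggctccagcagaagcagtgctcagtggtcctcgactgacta
Selp, chr1:164115014-164115263: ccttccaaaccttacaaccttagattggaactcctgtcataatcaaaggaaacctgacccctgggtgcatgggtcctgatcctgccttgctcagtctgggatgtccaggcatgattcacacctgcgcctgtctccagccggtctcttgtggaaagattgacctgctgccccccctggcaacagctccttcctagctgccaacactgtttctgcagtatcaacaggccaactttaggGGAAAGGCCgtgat
Itgam, chr7:128062390-128062639: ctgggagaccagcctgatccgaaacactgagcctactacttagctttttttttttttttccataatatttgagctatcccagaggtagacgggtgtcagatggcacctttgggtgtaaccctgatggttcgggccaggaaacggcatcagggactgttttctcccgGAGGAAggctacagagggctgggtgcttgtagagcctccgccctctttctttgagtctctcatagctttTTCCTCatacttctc

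The NF-kB-like letters occurred at 2 places before Icam1, where GGAAATTCC matched the pattern on both strands. They occurred at 1 place before Sele, at 1 place before Selp and in 15.7% of all 32851 promoter windows of this length. The AP-1-like letters were found before Sele and in 4.46% of all windows. The ETS-like letters, the core bound by the myeloid factor PU.1 and its relatives, occurred at 2 places before Itgam and at 1 place before Sele, against 23.3% of all windows with a match. These are letter matches in a window and not measured binding. Vcam1, Selplg, Itgal and Itgb2 had no entry.

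Ang II in Plod1-/- mice came with higher mRNA levels of 3 of the 4 leukocyte partners, Itgb2, Itgam and Selplg. Of these, Itgam was tested only because of its Ang II values, so its call is not independent support. Selp was also called higher, but that call was lost under several alternatives. Vcam1 and Icam1 did not pass the test, and Sele and Itgal were below the level filter. Itgb2 was 15.2 times, Itgam 16.8 times and Selplg 13.9 times its saline level by the ratio of group means, and Selp 2.85 times. Below the filter, Sele was 9.64 times its saline mean (exact permutation test, p = 0.00794) and Itgal 8.36 times (exact permutation test, p = 0.0238), neither adjusted over genes. In WT mice, none of the 5 members that could be fitted passed both thresholds under the same infusion, and Sele, Itgam and Itgal were below the filter. Between the Ang II-treated genotypes Itgb2, Itgam and Selplg differed, Vcam1, Icam1 and Selp did not pass, and Sele and Itgal were again below the filter.

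**Figure D1:**
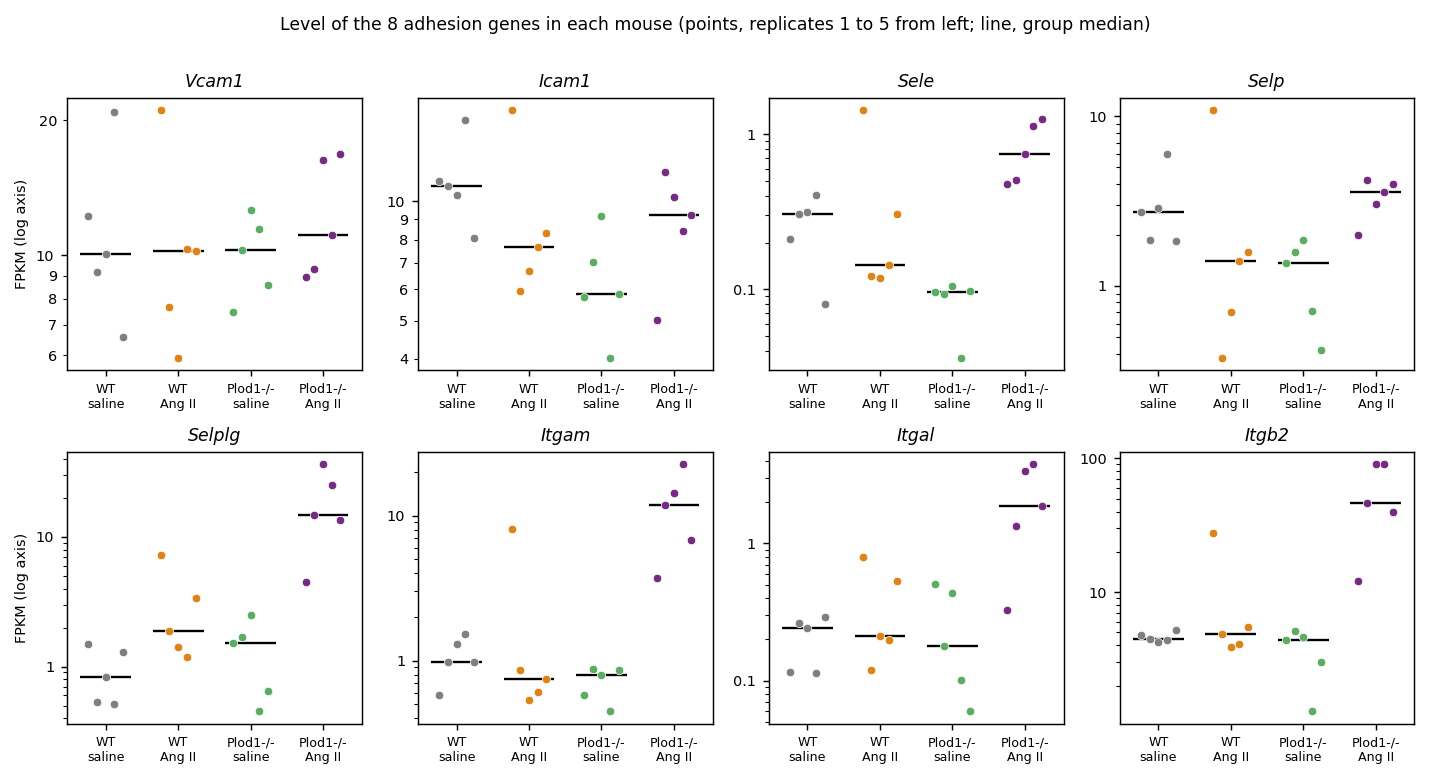
FPKM (log axis) of the 8 adhesion genes in each of the 20 mice, grouped by genotype and infusion; points are mice, replicates 1 to 5 from the left, and lines are group medians. The points of Plod1-/- mice given Ang II lie highest for Itgb2, with a median of 46.7 FPKM, while the 4 groups overlap for Vcam1, and Ang II-treated WT replicate 1 is the highest of its group in each panel.

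Vcam1 encodes VCAM-1, a ligand of alpha4 integrins. In WT mice given saline it was at 12.2, 9.17, 10.1, 20.9 and 6.58 FPKM, and in WT mice given Ang II at 21.0, 7.68, 5.92, 10.3 and 10.2 FPKM. Plod1-/- mice had 7.48, 10.3, 12.6, 11.4 and 8.59 FPKM under saline and 8.94, 9.33, 16.3, 11.1 and 16.8 FPKM under Ang II. All 4 groups overlapped, and their medians stayed between 10.1 and 11.1 FPKM. The log2 difference of Plod1-/- mice given Ang II from those given saline was 0.26, with a 95% interval from -0.18 to 0.70 (limma adjusted p = 0.321), that is, from 0.880 to 1.63 times on the FPKM + 1 scale. Between the Ang II-treated genotypes it was 0.24, with an interval from -0.42 to 0.89 (limma adjusted p = 0.565).

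Icam1 encodes ICAM-1, which the beta2 integrins bind. It was at 11.2, 10.9, 10.4, 16.0 and 8.09 FPKM in WT mice given saline and at 17.0, 5.92, 6.66, 7.67 and 8.33 FPKM in WT mice given Ang II. Saline-treated Plod1-/- mice had 5.74, 7.04, 9.16, 4.03 and 5.82 FPKM, and Plod1-/- mice given Ang II 5.03, 11.9, 10.3, 8.43 and 9.25 FPKM. Saline-treated WT mice had the highest median, 10.9 FPKM, followed by Plod1-/- mice given Ang II at 9.25, WT mice given Ang II at 7.67 and Plod1-/- mice given saline at 5.82 FPKM, and each group overlapped its neighbour in this order. In Plod1-/- mice the log2 difference of Ang II from saline was 0.43, with a 95% interval from -0.07 to 0.93 (limma adjusted p = 0.146). Under Ang II the log2 difference between the genotypes was 0.03 (95% interval from -0.58 to 0.63, limma adjusted p = 0.948), and its sign turned with quantile normalization and with the mitochondrial genes left out. Under saline it was lower in Plod1-/- mice by a log2 difference of -0.75 (SE 0.20, limma adjusted p = 0.0464), which is short of the fold threshold.

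Sele encodes E-selectin, made by endothelium after cytokine stimulation, and had the lowest median of the 8 members in Plod1-/- mice under saline. It was at 0.212, 0.305, 0.316, 0.409 and 0.0808 FPKM in WT mice given saline and at 1.43, 0.122, 0.119, 0.144 and 0.306 FPKM in WT mice given Ang II. In Plod1-/- mice it went from 0.0964, 0.0925, 0.105, 0.0361 and 0.0980 FPKM under saline to 0.475, 0.507, 0.751, 1.13 and 1.25 FPKM under Ang II. All 5 values of Plod1-/- mice given Ang II were above those of every mouse given saline, in both genotypes, and Ang II-treated WT replicate 1 was above all of them. The gene was below the level filter and was tested by itself. The mean was 9.64 times the saline mean in Plod1-/- mice (exact permutation test, p = 0.00794, the smallest that 5 mice against 5 allow) and 1.95 times the WT mean under Ang II (exact permutation test, p = 0.151). Under saline the Plod1-/- mean was 0.323 times the WT mean (exact permutation test, p = 0.0397). These p-values are two-sided and not adjusted over genes.

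Selp encodes P-selectin, which endothelial cells and platelets store and expose on activation. Saline-treated WT mice had 2.74, 1.86, 2.89, 6.03 and 1.85 FPKM, and WT mice given Ang II 10.9, 0.378, 0.705, 1.40 and 1.59 FPKM. Saline-treated Plod1-/- mice had 1.36, 1.59, 1.86, 0.715 and 0.420 FPKM, and Plod1-/- mice given Ang II 1.99, 4.24, 3.05, 3.60 and 4.01 FPKM. The Plod1-/- groups did not overlap. In the order of the medians, Plod1-/- mice given Ang II came first at 3.60 FPKM and overlapped WT mice given saline, at 2.74 FPKM. Selp rose under Ang II in Plod1-/- mice by 1.02 on the log2 scale (SE 0.22, limma adjusted p = 0.00363), a value at the edge of the fold threshold. The call was lost with quantile normalization (0.88), with the mitochondrial genes left out (0.97), when all 4 groups were fitted together (limma adjusted p = 0.0533) and in 5 of 10 fits with one mouse left out, where the difference lay between 0.88 and 1.15.

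The estimated response of Selp in WT mice was smaller with 1 mouse in the fit than without it. With all mice its log2 difference was -0.45 (limma adjusted p = 0.478), and the highest Selp value of the 20 mice, 10.9 FPKM, was that of Ang II-treated WT replicate 1. Without that mouse the WT difference was -0.97 (limma adjusted p = 0.0246), short of the fold threshold. The difference between the Ang II-treated genotypes then went from 0.62 (limma adjusted p = 0.354) to 1.14 and passed both thresholds.

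By FPKM, each of the 4 leukocyte partners was below Icam1 in all 10 mice given saline. Selplg encodes PSGL-1, the selectin ligand of most leukocytes. It was at 1.48, 0.536, 0.837, 0.514 and 1.28 FPKM in WT mice given saline and at 7.25, 1.89, 1.42, 1.18 and 3.39 FPKM in WT mice given Ang II. In Plod1-/- mice it was at 1.53, 1.69, 2.50, 0.451 and 0.643 FPKM under saline and at 4.50, 14.8, 36.6, 25.2 and 13.5 FPKM under Ang II. The Plod1-/- groups did not overlap, and the lowest Ang II-treated Plod1-/- mouse, replicate 1, was below the highest Ang II-treated WT mouse. Selplg rose under Ang II in Plod1-/- mice by 2.88 on the log2 scale (SE 0.46, limma adjusted p = 7.45e-04) and was 2.23 higher than in WT mice under Ang II (SE 0.51, limma adjusted p = 0.00976). In WT mice the difference was 0.90 (SE 0.33, limma adjusted p = 0.0476), short of the fold threshold, which it passed with a pseudocount of 0.1.

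Itgam encodes the alphaM chain (CD11b), which with the beta2 chain makes Mac-1 of monocytes, macrophages and neutrophils. Saline-treated WT mice had 0.577, 0.971, 1.29, 1.52 and 0.983 FPKM, and WT mice given Ang II 8.06, 0.854, 0.535, 0.604 and 0.741 FPKM. Saline-treated Plod1-/- mice had 0.580, 0.871, 0.796, 0.447 and 0.859 FPKM, and Plod1-/- mice given Ang II 3.74, 11.9, 14.4, 22.8 and 6.75 FPKM. All 5 Plod1-/- mice given Ang II were above 14 of the other 15 mice, the exception being Ang II-treated WT replicate 1, which lay within their range. The log2 difference under Ang II was 2.71 in Plod1-/- mice (SE 0.36, limma adjusted p = 2.78e-04). It was 2.25 between the Ang II-treated genotypes (SE 0.55, limma adjusted p = 0.0126). In Plod1-/- mice Itgam entered the fit through the Ang II-treated mice alone, since every saline value was below 1 FPKM.

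Itgal encodes the alphaL chain (CD11a), which with the beta2 chain makes LFA-1, carried by lymphocytes and other leukocytes. It was at 0.116, 0.264, 0.241, 0.113 and 0.292 FPKM in WT mice given saline and at 0.790, 0.119, 0.210, 0.196 and 0.530 FPKM in WT mice given Ang II. In Plod1-/- mice it was at 0.507, 0.179, 0.435, 0.101 and 0.0597 FPKM under saline and at 0.328, 1.34, 3.36, 3.80 and 1.89 FPKM under Ang II. Replicate 1 of the Plod1-/- mice given Ang II lay within the saline values and the other 4 above them. Itgal was below the level filter, and its mean was 8.36 times the saline mean in Plod1-/- mice (exact permutation test, p = 0.0238) and 5.81 times the WT mean under Ang II (exact permutation test, p = 0.0238). With no filter on low values limma called it in Plod1-/- mice (log2 difference 1.20, adjusted p = 0.0317).

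Itgb2 encodes the beta2 chain (CD18), shared by LFA-1, Mac-1 and the other integrins with a CD11 chain, and was the leukocyte partner with the highest level in all 20 mice. Saline-treated WT mice had 4.82, 4.46, 4.23, 4.39 and 5.21 FPKM, and WT mice given Ang II 27.6, 4.89, 3.90, 4.08 and 5.50 FPKM. Saline-treated Plod1-/- mice had 4.36, 5.12, 4.64, 1.29 and 2.98 FPKM, and Plod1-/- mice given Ang II 12.0, 46.7, 90.0, 90.8 and 39.4 FPKM. The Plod1-/- groups did not overlap, and under Ang II the genotypes overlapped through replicate 1 of each. Itgb2 rose under Ang II in Plod1-/- mice by 3.39 on the log2 scale (SE 0.51, limma adjusted p = 5.02e-04). It was 2.58 higher than in WT mice under Ang II (SE 0.61, limma adjusted p = 0.0109). In WT mice the log2 difference under Ang II was 0.46, with a 95% interval from -0.44 to 1.35 (limma adjusted p = 0.376), and -0.01 without Ang II-treated WT replicate 1.

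**Figure D2:**
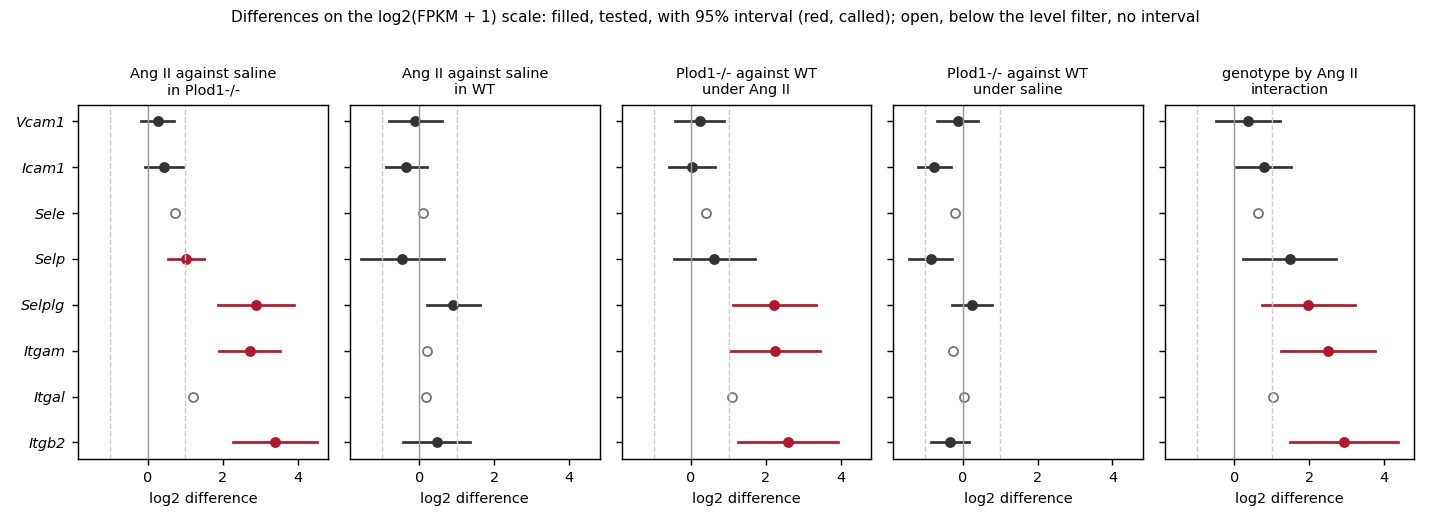
Difference of each adhesion gene on the log2(FPKM + 1) scale in the 4 comparisons and the interaction; filled points carry 95% intervals from limma, red marks genes past both thresholds, and open points are genes below the level filter, with no interval. The intervals of Selplg, Itgam and Itgb2 lie above 0 in the panels for Ang II in Plod1-/- mice, for the genotypes under Ang II and for the interaction, whereas that of Vcam1 crosses 0 in all 5 panels.

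Counted over the members, 4 of 8 passed both thresholds in Plod1-/- mice under Ang II, compared with saline, all higher, against 13.9% of the 12333 genes tested in either direction and 8.38% called higher. Of the 4, Itgam was tested only because of its Ang II values, as were 169 of the 1034 genes called higher. In 5 of the 8 the groups were apart in all mice, against 29.2% of the genes tested. The median log2 difference over all 8 members was 1.11, beside 0.05 over all genes tested. In WT mice 0 of 8 passed with limma, against 8.66% of 11994 genes, and Selplg alone had an unadjusted p below 0.05 among the 5 members that could be fitted. Between the Ang II-treated genotypes 3 of 8 passed, against 11.1% of 12356 genes and 7.45% called higher. Under saline limma called 0 of 8, against 0.767% of 11999 genes. Of the 5 members that could be fitted, 2, Icam1 and Selp, had an unadjusted p below 0.05, both lower in Plod1-/- mice. Sele, below the filter, was lower there too (exact permutation test, p = 0.0397, not adjusted). The comparisons share mice, so their counts are not independent of each other.

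The interaction of genotype and infusion, fitted on all 20 mice, asks whether the response to Ang II differed between the genotypes. It passed for Itgb2 (2.93 on the log2 scale, SE 0.69, limma adjusted p = 0.00350), Itgam (2.51, SE 0.60, limma adjusted p = 0.00372) and Selplg (1.98, SE 0.60, limma adjusted p = 0.0151), which is 3 of 8 members against 16.1% of 13263 genes in either direction and 9.69% with a positive difference. For Selp it was 1.48 (limma adjusted p = 0.0563), and it passed with a pseudocount of 0.1 (2.39, limma adjusted p = 0.0331) and with weights per mouse (1.94, limma adjusted p = 0.00201). For Icam1 it was 0.78 (limma adjusted p = 0.0875). Without Ang II-treated WT replicate 1 both also passed, which made 5 of 8. For Vcam1 it was 0.37, with a 95% interval from -0.48 to 1.22 (limma adjusted p = 0.489).

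In whole tissue, more leukocytes and more RNA per leukocyte cannot be told apart. Markers of leukocytes moved with the partner genes. All 8 of the pan-leukocyte markers tested were called higher under Ang II in Plod1-/- mice, against 8.38% of all genes. Between the Ang II-treated genotypes all 10 were, against 7.45%. Their summed level was 31.8 to 67.9 FPKM under saline and 108 to 629 FPKM under Ang II in Plod1-/- mice, and 44.4 to 61.4 FPKM under saline and 39.6 to 151 FPKM under Ang II in WT mice, with no marker at 0 throughout. Without overlap, 10 of all 12 macrophage and monocyte markers and 10 of all 12 neutrophil markers were higher under Ang II than under saline in Plod1-/- mice. Of all genes tested, 29.2% were apart in either direction. Mertk, 1 of the macrophage markers, was apart and lower, at 17.3 FPKM on average under Ang II and 28.4 FPKM under saline. Of the 5 neutrophil markers that could be fitted, 3 passed the level filter through the Ang II mice alone, so their calls are not counted. The summed level of the 12 neutrophil markers was 1.60 to 3.82 FPKM under saline and 158 to 728 FPKM under Ang II in Plod1-/- mice, and 222 FPKM in Ang II-treated WT replicate 1, where the group median was 13.1 FPKM. Mpo stayed below 0.1 FPKM by its median in every group. None of the 12 T and NK cell markers reached the level filter, and their summed level was at most 9.56 FPKM in any mouse.

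Each partner was therefore also expressed as a ratio to the geometric mean of Ptprc, Cd53, Laptm5, Coro1a and Lcp1, genes shared by leukocytes. The mean log2 ratios of Itgb2 were, in WT mice, 0.97 ± 0.15 under saline and 0.98 ± 0.33 under Ang II, and in Plod1-/- mice 0.94 ± 0.36 and 0.98 ± 0.20 (SD, n = 5 each). The difference between the Plod1-/- groups was 0.04 for Itgb2 (exact permutation test, p = 0.849), -0.06 for Selplg (exact permutation test, p = 0.683) and -0.0028 for Itgam (exact permutation test, p = 1). Itgal was lower relative to these genes under Ang II, at a mean log2 ratio of -3.70 ± 0.31 against -2.52 ± 0.49 (SD, n = 5 each), without overlap (exact permutation test, p = 0.00794, and 0.0635 adjusted over 32 ratio tests). Of the 32 ratio tests, over members and comparisons, 0 passed after adjustment and 9 had an unadjusted p below 0.05 (exact permutation tests). The ratios moved with the reference. With Ptprc alone, the difference between the Plod1-/- groups was 0.77 for Itgb2, 0.67 for Selplg, 0.73 for Itgam and -0.45 for Itgal. With 1 FPKM added in place of 0.1 it was 0.33 for Itgb2, -0.17 for Selplg, -0.34 for Itgam and -1.86 for Itgal, whose saline levels lie near the 0.1 added.

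The CD18 chain needs an alpha chain to reach the surface. The summed FPKM of Itgam, Itgal, Itgax and Itgad, its CD11 partners, had medians of 1.45 (saline) and 1.09 (Ang II) in WT mice, and of 1.29 (saline) and 14.5 (Ang II) in Plod1-/- mice. Itgb2 per unit of that sum was 3.15, 3.89, 2.81 and 3.22 by the group medians in the same order, and all groups overlapped. Itgam made up 68.6%, 57.6%, 49.7% and 78.3% of the alpha chain FPKM by the medians, Itgal 13.4%, 18.7%, 13.9% and 13.1%, and Itgad, the scarcest, no more than 1.80%. Itgax, the alphaX chain of CD11c, was at 2.07 FPKM on average under Ang II and 0.272 FPKM under saline in Plod1-/- mice, below the filter and without overlap (exact permutation test, p = 0.00794).

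**Figure D3:**
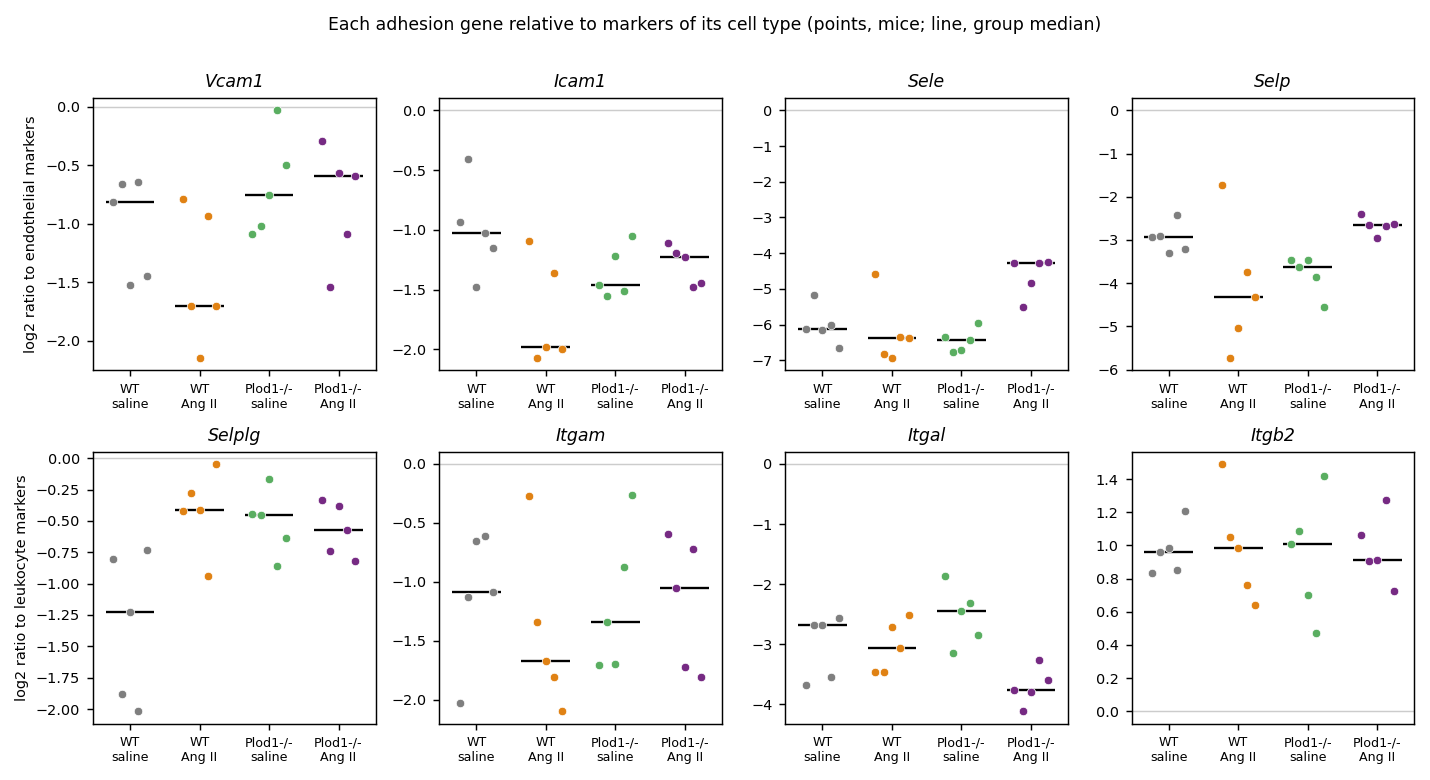
Log2 ratio of each adhesion gene to the geometric mean of 5 markers of the cell type it was grouped with in each mouse, endothelial markers in the upper and leukocyte markers in the lower row; points are mice and lines are group medians. Itgb2 stays near a log2 ratio of 1 in the 4 groups, whereas in Plod1-/- mice the Ang II points lie above the saline points for Sele and Selp and below them for Itgal.

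The endothelial members were set against Pecam1, Cdh5, Tie1, Erg and Egfl7, genes of endothelial cells. Which cells of the tissue made the RNA of Vcam1 and Icam1 was not tested, so their levels and ratios need not describe endothelial expression. Of 14 endothelial markers, 4 were called higher under Ang II in Plod1-/- mice and 6 in WT mice, against 8.38% and 6.38% of all genes. The summed level of the 14 was 158 to 310 FPKM under saline and 151 to 336 FPKM under Ang II in Plod1-/- mice, with no marker at 0. Relative to the 5 reference genes, Sele in Plod1-/- mice was higher under Ang II than under saline by 1.83 on the log2 scale and Selp by 1.13, both without overlap (exact permutation tests, p = 0.00794 for each, and 0.0635 adjusted over 32 ratio tests). Icam1 differed by 0.07 (exact permutation test, p = 0.595) and Vcam1 by -0.14 (exact permutation test, p = 0.619). With Pecam1 alone as reference the differences were 2.73 for Sele, 2.03 for Selp, 0.97 for Icam1 and 0.76 for Vcam1, and with 1 FPKM added 0.34 for Sele and 0.64 for Selp. The reference genes did not move together. In Plod1-/- mice the means under saline and Ang II were 62.4 and 44.8 FPKM for Pecam1 and 24.9 and 16.6 for Erg. They were 9.41 and 28.1 FPKM for Cdh5, 10.8 and 18.8 for Tie1 and 8.87 and 15.6 for Egfl7. Pecam1, the only one tried alone, thus fell, and ratios to a gene that rose, such as Cdh5, were not computed. Under saline Selp was lower in Plod1-/- than in WT mice by -0.84 on the same scale, without overlap (exact permutation test, p = 0.00794, and 0.0635 adjusted), and by -0.35 with Pecam1 alone and -0.40 with 1 FPKM added. When Ang II-treated WT replicate 1 was left out, 7 of the 32 ratio tests passed after adjustment. In Plod1-/- mice these were Sele, Selp and Itgal, and between the Ang II-treated genotypes Sele and Selp. The others were Selp in WT mice and Selp under saline. The tests within Plod1-/- mice and under saline hold no Ang II-treated WT mouse. Their unadjusted p-values were unchanged, and they passed only through the adjustment over the 32 tests.

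Platelets also carry P-selectin, and their markers were higher too under Ang II in Plod1-/- mice. All 10 platelet and megakaryocyte markers had a higher mean there. For 4 of the 10 the groups did not overlap, against 29.2% of all genes tested in either direction. Of 6 tested, 5 were called higher, against 8.38% of all genes, and 2 of them, Treml1 and Itga2b, were tested only because of their Ang II values. The summed level of the 10 markers was 12.7 to 32.3 FPKM under saline and 155 to 1004 FPKM under Ang II in Plod1-/- mice, and 32.8 to 80.0 FPKM under saline and 25.4 to 101 FPKM under Ang II in WT mice. Ang II-treated WT replicate 1, the mouse with the highest Selp, had the 101 FPKM. Gp6 was below 0.1 FPKM by its median in every group. Pf4, platelet factor 4, led the list with 14.3 ± 8.22 FPKM under saline against 521 ± 324 FPKM under Ang II in Plod1-/- mice (SD, n = 5 each). By the means, Pf4 made up most of the summed level in both Plod1-/- groups, so that sum mainly followed Pf4. Which cells made the Pf4 RNA was not tested, so the sum alone does not show more platelets. All 5 red blood cell markers tested were called higher as well, against 8.38% of all genes, but the groups were apart for 0 of all 6 such markers. The part of platelets and of blood in the level of Selp was not tested.

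Other genes of the selectin step moved with Ang II in Plod1-/- mice. Of 16 such genes 9 were tested and 4 called higher, against 8.38% of all genes, and the median log2 difference of all 16 was 0.56. Cd44, a hyaluronan receptor that also binds E-selectin, had 4.29 ± 0.745 FPKM under saline and 25.8 ± 8.22 FPKM under Ang II, a log2 difference of 2.30 (SE 0.21, limma adjusted p = 4.22e-05). The others were Cd24a, a glycoprotein ligand of P-selectin (1.54), and the glycosyltransferases B4galt1 (1.41) and St3gal4 (1.11), which build selectin ligands. Between the Ang II-treated genotypes 5 of 11 tested were called higher, against 7.45% of all genes. Among them was Gcnt1, the core 2 branching enzyme (1.54), while St3gal4 had a log2 difference of 0.89. The interaction called 6 of 11 with a positive difference, against 9.69% of all genes. Fut7, a fucosyltransferase of leukocytes, was below the filter at 0.193 FPKM on average under Ang II and 0.219 FPKM under saline in Plod1-/- mice (exact permutation test, p = 0.643). Of all 16 genes, 6 were apart and higher under Ang II in Plod1-/- mice, and 1, Tpst1, was apart and lower. It was at 20.5 FPKM on average under Ang II and 30.9 FPKM under saline. Of all genes tested, 29.2% were apart in either direction.

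Genes that switch integrins to their binding state, or signal from them, were the adhesion list with the largest share called among the 5 that were compared. In Plod1-/- mice 10 of 15 tested were called higher under Ang II, against 8.38% of all genes, Apbb1ip among them through its Ang II values alone. In WT mice limma called 0 of 12 in either direction, against 8.66% of all genes, and 3 had an unadjusted p below 0.05. Fermt3, kindlin-3 of blood cells, rose by 2.91 on the log2 scale (SE 0.47, limma adjusted p = 7.61e-04). The exchange factor Vav1 (2.80), the GTPase Rac2 (3.17) and the Src family kinase Fgr (2.25), which act beneath beta2 integrins in myeloid cells, rose too. Between the Ang II-treated genotypes 12 of 15 were called higher and for the interaction 11 of 16, against 7.45% and 9.69% of all genes. Of the other leukocyte integrins, 2 of 6 could be tested in Plod1-/- mice. Itgb7 rose by 1.20 (SE 0.27, limma adjusted p = 0.00493), and Itga4, the chain that binds VCAM-1, was below the filter at 0.202 FPKM under saline and 0.683 FPKM under Ang II (exact permutation test, p = 0.0238).

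Among 12 other ICAM and junction genes in the files, 11 were tested in Plod1-/- mice. Under Ang II 2 were called higher, Cdh5 (1.47), which is VE-cadherin, and Nectin2 (1.07), and 1 lower, Jam3 (-1.16). Of all genes, 8.38% were called higher and 5.51% lower. Icam2 was at 8.20 ± 4.13 FPKM under saline and 8.57 ± 3.67 FPKM under Ang II (SD, n = 5 each, limma adjusted p = 0.878). In WT mice Cdh5 (1.14) and Nectin2 (1.94) were called higher as well, against 6.38% of all genes called higher there. Between the Ang II-treated genotypes limma called 0 of 11, against 11.1% of all genes, and 3 had an unadjusted p below 0.05. Among the 3 were the poliovirus receptor homologue Pvr (0.98, limma adjusted p = 0.00834) and Jam3 (-0.63, limma adjusted p = 0.0329).

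NF-kB drives transcription of Sele, Icam1 and Vcam1 in cultured endothelium. Of 17 tested genes that induce it or answer to it, 6 were called higher under Ang II in Plod1-/- mice and 0 lower, against 8.38% and 5.51% of all genes. The median log2 difference of the 19 listed was 0.76. The cytokine Il1b, tested only because of its Ang II values, had a log2 difference of 4.29 and its receptor Il1r1 1.26, the chemokines Ccl2 4.26 and Cxcl1 3.06, and Nfkbiz and Tnfaip2, which NF-kB induces, 1.42 and 2.05. Nfkbia, the inhibitor that NF-kB also induces, was at 78.2 ± 7.17 FPKM under saline and 86.5 ± 26.1 FPKM under Ang II (SD, n = 5 each, limma adjusted p = 0.704). Tnf was below the filter at 0.124 and 1.31 FPKM on average (exact permutation test, p = 0.00794). In WT mice Ccl2 (-1.70) and Cxcl1 (-1.06) were called lower under Ang II, against 2.28% of all genes.

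**Figure D4:**
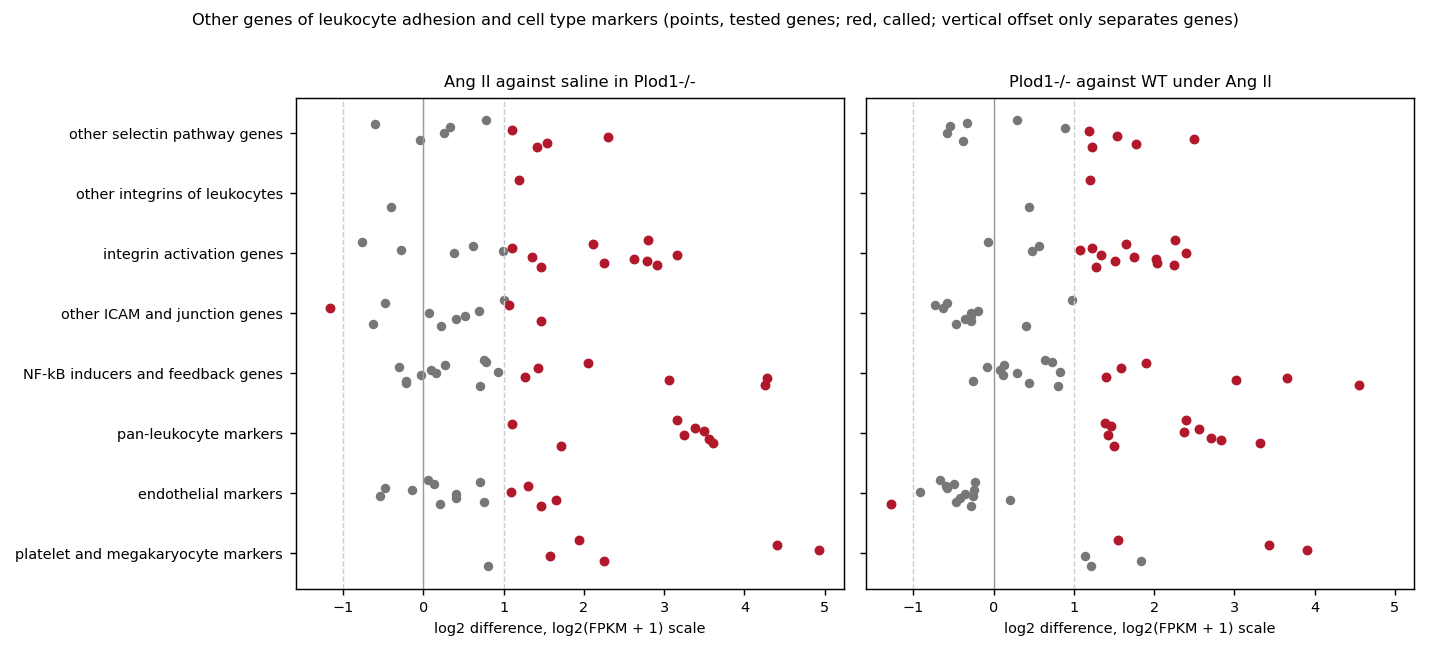
Log2 difference of each tested gene of 5 adhesion lists and 3 marker lists under Ang II in Plod1-/- mice (left) and between the Ang II-treated genotypes (right), on the log2(FPKM + 1) scale; points are genes and red marks those past both thresholds. In the left panel 10 of 15 integrin activation genes and 8 of 8 pan-leukocyte markers are red, while endothelial markers have 4 of 14. Of all genes, 8.38% were called higher in that comparison.

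Within the groups, mice differed together. After the group means were subtracted, the log2 levels of Selplg and Itgb2 had a Pearson correlation of 0.93 over the 20 mice, Itgam and Itgb2 0.90, and Icam1 and Selp 0.86. These are descriptions of mice that share an infusion and a dissection, and the last was 0.79 without Ang II-treated WT replicate 1. Vcam1 and the 4 leukocyte partners had correlations between 0.33 and 0.52, and between 0.17 and 0.22 without that mouse.

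The genes most like each member over the 20 mice, among 13263 genes, were of different kinds. Closest to Itgb2 were C3ar1 (r = 0.97), Ncf1 (0.96) and Ncf4 (0.96), the latter both subunits of the phagocyte NADPH oxidase. Closest to Selplg were Rac2 (0.97), Arhgap9 (0.97) and Coro1a (0.97), the first and last of which are in the pan-leukocyte list, closest to Itgam Bst1 (0.96), Clec4d (0.95) and Msr1 (0.94), and closest to Itgal Rassf5 (0.96), Bin2 (0.94) and C5ar2 (0.94). Icam1 lay nearest to Srgn (0.89), Fcer1g (0.88) and Clec4a1 (0.88), which leukocytes express, and not to a listed endothelial marker. Sele lay nearest to Il13ra1 (0.91), Sox4 (0.90) and Cp (0.89), Selp to Cpne8 (0.89), Serpina3n (0.88) and Gm10156 (0.87), and Vcam1 to Tmem167 (0.84), Rab11a (0.83) and Rps15a (0.81). Without Ang II-treated WT replicate 1 the first of these fell to 0.77 for Sele and 0.73 for Selp, and stayed at 0.95 for Itgb2.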

How the data were processed

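Abdominal aortas of 20 mice gave 1 TruSeq V2 library each, sequenced on an Illumina instrument. The authors removed ribosomal reads, aligned the rest with HISAT2 (2.1.0 in the submitters' processing notes, which name mm10), and made the deposited FPKM with stringtie, cuffquant and cuffnorm, which normalized them between libraries. Bowtie2 2.2.3 and HTSeq 0.6.0 are also named there. The annotation release is not given in the sources used here, and coordinates are GENCODE M21 (GRCm38).

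Groups came from the labels. The 8 members and the gene lists were chosen with earlier results of these data known. With R 4.3.3 and limma 3.58.1, log2(FPKM + 1) was fitted with a variance trend for genes with FPKM of at least 1 in at least 5 mice of a comparison, and this scale understates changes of low genes. Genes were called at a Benjamini-Hochberg adjusted p below 0.05 and a log2 difference above 1 in size. Members below the filter, and ratios to 5 marker genes (0.1 added), had two-sided exact permutation tests. Named genes were the members, genes of the lists, and the 3 genes most correlated with each member. Counts were not used, so absolute depth is unknown and no detection limit is given. Whether the 5 mice of a group were handled separately throughout is not stated. The alternatives are named in the closing section, and leave-one-out fits kept the genes tested with all mice. RefSeq promoters were searched and figures drawn with Python 3.11.15, pandas 2.3.3, numpy 2.4.6 and matplotlib 3.10.9.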

Additional observations from a re-analysis of the deposited data

Results flagged for a closer look

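Ang II-treated WT replicate 1 was far from the other 4 mice of its group in 5 of the 8 members. Its Icam1 was 17.0 FPKM where the next mouse had 8.33, its Sele 1.43 against 0.306, its Selp 10.9 against 1.59, its Itgam 8.06 against 0.854 and its Itgb2 27.6 against 5.50 FPKM. The neutrophil and pan-leukocyte marker sums of that mouse, given above, were the highest of its group as well, and their part in these values was not tested. Elsewhere, Selp was 6.03 FPKM in saline-treated WT replicate 4 against 2.89 in the next mouse, and Sele 0.0361 FPKM in saline-treated Plod1-/- replicate 4 against 0.0925. Of 32 groups of 5 values, 7 held such a distant value, and chance gives about 1 in 20 of groups, or 1.6 here.

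The response to Ang II differed between the genotypes, by limma's interaction term, for Itgb2 (2.93 on the log2 scale), Itgam (2.51) and Selplg (1.98).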

How the results depend on the processing

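Values were recomputed with a pseudocount of 0.1, with no filter, with a replicate block, with no variance trend, with weights per mouse, with quantile normalization, with mitochondrial genes left out, by the adjusted p alone, without both Xist libraries, with all 4 groups in one fit, and without each mouse in turn. Over them 3 to 5 members were called for Ang II in Plod1-/- mice, 2 to 4 between the genotypes under Ang II and 3 to 5 for the interaction. Selplg, Itgam and Itgb2 were called in these 3 comparisons throughout, except Itgb2 between the genotypes under Ang II with the replicate block (2.58, limma adjusted p = 0.0504). Replicate numbers do not pair the mice: of 30 same-numbered pairs, 8 correlated above 0.1 (from -0.332 to 0.452), and the block left 4 members called for Ang II in Plod1-/- mice and 3 for the interaction. In WT mice 1 member, Selplg, was called with a pseudocount of 0.1 and with the adjusted p alone, and under saline 1, Icam1, with the adjusted p alone. Weights per mouse called Selp between the genotypes under Ang II (1.04) and for the interaction (1.94), where a pseudocount of 0.1 also called it (2.39).

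Leaving out one mouse gave 0 to 1 members called in WT mice, 0 under saline, 3 to 5 for the interaction and 0 to 7 ratio tests passed. Small differences changed sign, and the cause was not tested. With one mouse left out, the WT response ran from -0.36 to 0.11 for Vcam1, -0.11 to 0.17 for Sele, -0.28 to 0.36 for Itgam and -0.014 to 0.62 for Itgb2. Icam1 between the genotypes under Ang II ran from -0.088 to 0.26, and was -0.12 with quantile normalization and -0.066 with mitochondrial genes left out. Under saline, Vcam1 ran from -0.30 to 0.083 and Itgal from -0.021 to 0.11. Ratios for Ang II in Plod1-/- mice ran from -0.27 to 0.043 for Vcam1, -0.15 to 0.027 for Selplg, -0.15 to 0.22 for Itgam and -0.079 to 0.16 for Itgb2. With Pecam1 alone or Ptprc alone as reference they were 0.76 for Vcam1, 0.67 for Selplg and 0.73 for Itgam, and 0.97 for Icam1, 0.77 for Itgb2 and -0.45 for Itgal, where the sign did not change.

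Quantile normalization moved the median of all genes from 0.12 to -0.03 between the genotypes under Ang II, where 744 genes were then called higher and 612 lower (920 and 453 without it), and from 0.12 to -0.01 for the interaction, with 1020 and 1095 (1285 and 844). With the adjusted p alone, 5408 genes passed for Ang II in Plod1-/- mice, 4560 in WT mice, 3849 and 786 between the genotypes under Ang II and saline, and 5017 for the interaction, against 1714, 1039, 1373, 92 and 2129. Sele and Itgal were below 1 FPKM in most mice, where the precision of FPKM is lowest.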

Other observations

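Other cells of the aortic sample also differed between the groups. Of 8 smooth muscle markers, 6 were called lower under Ang II in Plod1-/- mice and 3 in WT mice, with median log2 differences of -1.73 and -0.89. Of all genes, 5.51% and 2.28% were called lower there. Of the adipocyte markers tested, 9 of 9 were called higher under Ang II in WT mice, with a summed level between 1287 and 7959 FPKM against 103 to 794 FPKM under saline, and 3 of 10 in Plod1-/- mice. Of all genes, 6.38% were called higher in WT mice and 8.38% in Plod1-/- mice. Skeletal muscle markers were called higher in 3 of 4 tested in WT mice, against the same 6.38% of all genes. Of 7 fibroblast markers, 2 were called higher under Ang II in Plod1-/- mice, against 8.38% of all genes.

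B cell markers had a summed level of 1.53 to 15.6 FPKM in Plod1-/- mice given Ang II and of 0.808 to 1.43 FPKM in WT mice given saline. Their median log2 difference under Ang II was 0.32 in Plod1-/- mice. Red blood cell markers were called higher in 5 of 5 tested between the Ang II-treated genotypes, against 7.45% of all genes.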
